A study of Mus musculus with 40 samples.

Results

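The 9 genes described here are the bone mineralization genes Alpl, Ibsp, Bglap, Bglap2, Spp1, Sparc, Phospho1, Enpp1 and Ank, taken by their symbols from the authors' table of normalised expression. The full count table lists 48733 genes, of which 21204 were kept in the authors' filtered table and tested, and all 9 members passed that filter.

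The study followed repair of a resected rib in wild type mice of 2 ages, and asked how gene expression in the regenerating tissue differs between young and old animals. Immature mice are labelled as 7 weeks old and mature mice as older than 10 months, and the study's methods describe female C57BL/6 animals. Bulk RNA-seq was made from composite tissue (bone, bone marrow and intercostal muscle) at baseline, on the day of resection (0dpr) and 2, 5 and 14 days later (2dpr, 5dpr and 14dpr), with 4 libraries in each of 10 groups except mature 5dpr, where replicate 2 was not analysed here and n = 3. Baseline is tissue from before the operation in the study's account, while the sample labels describe all tissue as collected after it. Libraries came from a stranded TruSeq kit read as 150 bp paired ends on separate runs, and which library was on which run is not given in the sources used here, so a run effect and a group difference cannot be told apart. The study's methods speak of at least 3 biological samples in every experiment, but the labels do not say that each library is a separate animal, and where it is not, p-values measure only the spread between these samples, which may be technical.

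Library totals in the filtered table ran from 6057756 (immature 5dpr replicate 2) to 21537070 (immature 5dpr replicate 4), with a median of 9087417 reads. Levels below are CPM, read counts scaled to the size of each library and by TMM factors, which correct for a few abundant genes taking up reads. Some libraries stood apart. Replicate 3 of immature 0dpr and replicate 3 of mature 0dpr had the lowest TMM factors, 0.792 and 0.777, and the highest summed levels of 20 skeletal muscle markers, 236000 and 266000 CPM. Immature baseline replicate 2 had the least Bglap of its group, and mature 2dpr replicate 4 had the least Alpl and Ibsp of all 39 libraries. Each count of members that rests on any of these 4 libraries was also made without them.

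Mineral is laid down when phosphate is released from its inhibitor pyrophosphate and from phospholipid breakdown, and crystals then grow in a matrix of collagen and acidic proteins secreted by osteoblasts. Alpl, tissue-nonspecific alkaline phosphatase, hydrolyses pyrophosphate, and Phospho1 releases phosphate inside matrix vesicles. Enpp1 makes pyrophosphate outside the cell and Ank takes part in its export, so these genes sit on opposite sides of one balance. Among the matrix proteins, Ibsp (bone sialoprotein) can nucleate mineral, Bglap and Bglap2 encode osteocalcin, Spp1 (osteopontin) binds mineral and is also made by macrophages, and Sparc (osteonectin) binds collagen and calcium.

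The members lie on chromosomes 3, 4, 5, 10, 11 and 15 of GRCm38. Bglap (ENSMUSG00000074483, minus strand, chr3:88383501-88384464) and Bglap2 (ENSMUSG00000074486, minus strand, chr3:88377736-88378699) are neighbours. Ibsp (ENSMUSG00000029306, chr5:104299171-104311469) and Spp1 (ENSMUSG00000029304, chr5:104435118-104441050) lie on the plus strand of the same chromosome. The others are Alpl (ENSMUSG00000028766, chr4:137741733-137796384, minus), Sparc (ENSMUSG00000018593, chr11:55394500-55423183, minus), Phospho1 (ENSMUSG00000050860, chr11:95824499-95832140, plus), Enpp1 (ENSMUSG00000037370, chr10:24637914-24712159, minus) and Ank (ENSMUSG00000022265, chr15:27466677-27594909, plus). Promoters in the RefSeq table of build GRCm38.p6 were matched for 8 of the 9 members, all but Bglap2. The letters ACCACA, the core to which the osteoblast factor Runx2 is known to bind, were searched on both strands of the 250 bases before each start and occurred in 4614 of 32851 promoters (14.0%). The windows of Bglap, Spp1 and Enpp1 each held 1 match, and a further start of Spp1 and the windows of Alpl, Ibsp, Sparc, Phospho1 and Ank held 0. The Bglap and Spp1 promoters are shown because these genes had the largest changes of the set, one downward and one upward, at the same stage. Both are written 5′ to 3′ along the gene's own strand with the match in capitals, Bglap from chr3:88384467-88384716 on the minus strand and Spp1 from chr5:104434861-104435110 on the plus strand.
Bglap: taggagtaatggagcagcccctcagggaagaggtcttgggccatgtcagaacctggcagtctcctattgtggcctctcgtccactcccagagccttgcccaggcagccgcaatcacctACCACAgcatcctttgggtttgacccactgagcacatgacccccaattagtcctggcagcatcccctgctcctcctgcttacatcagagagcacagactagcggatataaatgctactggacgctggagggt
Spp1: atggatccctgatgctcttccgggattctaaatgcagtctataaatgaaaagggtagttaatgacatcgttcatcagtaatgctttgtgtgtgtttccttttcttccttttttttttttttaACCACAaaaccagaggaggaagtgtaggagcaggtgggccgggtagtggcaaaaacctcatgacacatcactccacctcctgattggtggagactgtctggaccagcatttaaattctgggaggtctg
The match began 132 bases before the Bglap start and 128 before the Spp1 start, and it is a description of letters only, with binding not measured here.

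Alpl, the phosphatase that removes pyrophosphate, was measured in every library well above the limit of 3 reads. In immature mice its level was 111, 124, 146 and 148 CPM at baseline, 102, 92.3, 40.6 and 81.4 at 0dpr, 29.0, 15.1, 21.8 and 41.1 at 2dpr, 25.4, 46.6, 60.2 and 84.4 at 5dpr, and 138, 232, 118 and 302 at 14dpr. In mature mice Alpl was 128, 122, 78.3 and 99.4 CPM at baseline, 79.5, 48.8, 59.8 and 72.6 at 0dpr, 19.5, 21.6, 25.3 and 6.15 at 2dpr, 18.1, 30.6 and 19.2 at 5dpr, and 76.8, 90.1, 125 and 64.4 at 14dpr. All 8 libraries at 2dpr were low, immature ones touching 0dpr only through its replicate 3, and the 14dpr libraries were above every 5dpr library of their own age. Group means ran from 198 ± 86 CPM (SD, n = 4) in immature 14dpr down through immature baseline, mature baseline, mature 14dpr, immature 0dpr, mature 0dpr, immature 5dpr, immature 2dpr and mature 5dpr to 18.1 ± 8.34 (n = 4) in mature 2dpr, and each group overlapped the next in that order.

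Enpp1, which makes pyrophosphate, had a different course. In immature mice it stood at 76.3, 83.9, 85.7 and 55.1 CPM at baseline, 55.0, 34.9, 30.7 and 35.6 at 0dpr, 83.8, 83.1, 82.4 and 103 at 2dpr, 260, 261, 297 and 190 at 5dpr, and 146, 134, 156 and 129 at 14dpr. In mature mice Enpp1 stood at 59.4, 65.4, 54.2 and 61.1 CPM at baseline, 42.7, 29.2, 22.4 and 36.3 at 0dpr, 87.1, 105, 160 and 39.6 at 2dpr, 189, 135 and 186 at 5dpr, and 201, 127, 198 and 140 at 14dpr. The immature 5dpr libraries were the highest of the series apart from an overlap with mature 14dpr, and the immature 0dpr and baseline libraries nearly touched at 55.0 and 55.1. By group mean the order was immature 5dpr (252 ± 44.9), mature 5dpr, mature 14dpr, immature 14dpr, mature 2dpr, immature 2dpr, immature baseline, mature baseline, immature 0dpr and mature 0dpr (32.6 ± 8.77), with the first neighbours separate and all later ones overlapping.

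Ank, the pyrophosphate transporter gene, had its lowest mean at 2dpr in each age. Its immature values were 174, 156, 172 and 131 CPM at baseline, 140, 135, 167 and 144 at 0dpr, 63.6, 53.8, 55.9 and 78.6 at 2dpr, 104, 117, 76.7 and 109 at 5dpr, and 91.6, 156, 109 and 155 at 14dpr. Its mature values were 113, 112, 132 and 131 CPM at baseline, 220, 143, 167 and 166 at 0dpr, 53.0, 63.0, 54.7 and 36.6 at 2dpr, 84.8, 59.0 and 72.9 at 5dpr, and 83.6, 91.1, 115 and 83.9 at 14dpr. Every 2dpr library lay below every 0dpr and baseline library of its age. Group means of Ank ran from 174 ± 32.4 in mature 0dpr through immature baseline, immature 0dpr, immature 14dpr, mature baseline, immature 5dpr, mature 14dpr, mature 5dpr and immature 2dpr to 51.8 ± 11 in mature 2dpr, every neighbour overlapping the next. An exonic stretch of 65 bases of Ank (1.8%) is shared with Mir7117.

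Phospho1, the phosphatase of matrix vesicles, was the least abundant member, at 0 to 6.12 CPM. Mature 2dpr replicate 3 had 0 reads, which allows up to 0.333 CPM at 3 reads, for counting error only. Its group means lay between 0.953 ± 0.482 (mature 5dpr, n = 3) and 3.49 ± 2.22 (mature 0dpr, n = 4), in the order mature 0dpr, immature 14dpr, mature baseline, immature baseline, immature 0dpr, mature 14dpr, mature 2dpr, immature 2dpr, immature 5dpr and mature 5dpr, and all neighbours overlapped. Of its 2029 exonic bases, 1818 (89.6%) also belong to Zfp652 on the same strand and 1708 to Abi3 on the other strand, and how shared reads or strand were treated in counting is not given in the sources used here. Reads of Phospho1 and these genes may therefore not be separable, and no comparison of the main fit changed Phospho1 at an adjusted p under 0.05. Its value at mature 2dpr against 0dpr, -1.0 (adjusted p = 0.173), passed without 2dpr replicate 4, the value lying from -1.68 to -0.62 over the libraries left out.

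Ibsp, the sialoprotein of mineralizing matrix, had its highest mean at 14dpr in each age. Its immature levels were 325, 417, 435 and 431 CPM at baseline, 207, 195, 78.3 and 160 at 0dpr, 88.7, 64.0, 117 and 141 at 2dpr, 171, 209, 447 and 267 at 5dpr, and 788, 892, 557 and 1250 at 14dpr. Its mature levels were 282, 294, 348 and 285 CPM at baseline, 87.5, 157, 86.1 and 168 at 0dpr, 140, 111, 209 and 15.7 at 2dpr, 81.4, 122 and 88.2 at 5dpr, and 256, 506, 591 and 334 at 14dpr. At 5dpr all 4 immature libraries lay above all 3 mature ones, while at 14dpr immature replicate 3 and mature replicate 3 overlapped. Group means ran from 871 ± 288 in immature 14dpr through mature 14dpr, immature baseline, mature baseline, immature 5dpr, immature 0dpr, mature 0dpr, mature 2dpr and immature 2dpr to 97.2 ± 21.7 in mature 5dpr, and neighbours overlapped at each step.

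Bglap, an osteocalcin gene, ranged from 1.02 to 479 CPM. In immature mice it was at 142, 449, 479 and 433 CPM at baseline, 168, 445, 71.0 and 280 at 0dpr, 54.4, 16.7, 24.3 and 136 at 2dpr, 55.7, 128, 48.3 and 91.1 at 5dpr, and 116, 439, 141 and 315 at 14dpr. In mature mice it was at 394, 376, 231 and 271 CPM at baseline, 97.3, 93.9, 74.6 and 80.4 at 0dpr, 10.5, 2.69, 21.6 and 1.02 at 2dpr, 4.83, 57.1 and 19.8 at 5dpr, and 40.0, 63.7, 89.1 and 104 at 14dpr. Mature 2dpr was the low end of the series, with only its replicate 3 above the lowest immature 2dpr library, and mature 14dpr lay below both immature 14dpr and mature baseline with no overlap. By mean the groups ran immature baseline (376 ± 157), mature baseline, immature 14dpr, immature 0dpr, mature 0dpr, immature 5dpr, mature 14dpr, immature 2dpr, mature 5dpr and mature 2dpr (8.96 ± 9.41), each overlapping the next.

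Bglap2 cannot be read apart from Bglap with certainty. The spliced sequences were identical at 434 of 440 aligned bases (98.6%), and 31.6% of all 150-base windows of Bglap, the length of a read, also occurred in Bglap2. Reads of Bglap exceeded reads of Bglap2 by a ratio of 1.01 to 4.43 (median 1.59, n = 39 libraries), the lowest in mature 2dpr replicate 3 and the highest in mature 2dpr replicate 2, which had 31 and 7 reads. Bglap2 ranged from 0.555 to 361 CPM, with group means from 256 ± 92.3 (immature baseline) through mature baseline, immature 0dpr, immature 14dpr, mature 0dpr, immature 5dpr, mature 14dpr, immature 2dpr and mature 5dpr to 7.53 ± 9.88 (mature 2dpr), neighbours overlapping throughout. In every comparison where the main fit called Bglap, it called Bglap2 too.

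**Figure D1:**
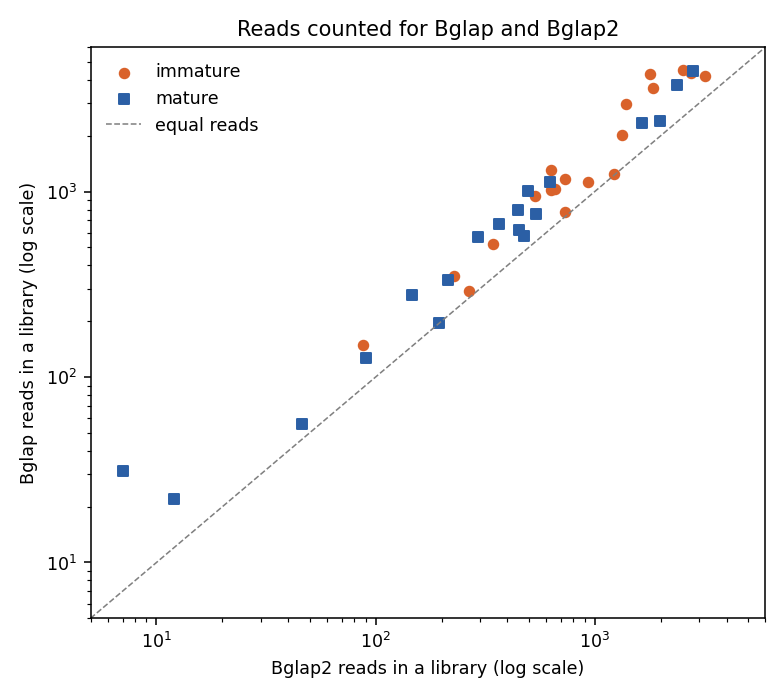
Reads counted for Bglap (vertical) and Bglap2 (horizontal) in each of the 39 libraries on log scales, circles for immature and squares for mature mice, with a dashed line at equal reads. The points follow a line slightly above equality, with a ratio of 1.01 to 4.43.

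Spp1, osteopontin, had its highest mean at 2dpr in each age. Its immature levels were 818, 1070, 1050 and 744 CPM at baseline, 678, 418, 190 and 328 at 0dpr, 6740, 3350, 6000 and 8150 at 2dpr, 3950, 3280, 1250 and 1900 at 5dpr, and 1730, 2860, 2170 and 2630 at 14dpr. Its mature levels were 582, 607, 668 and 447 CPM at baseline, 280, 234, 98.2 and 266 at 0dpr, 2590, 7110, 3460 and 4480 at 2dpr, 3320, 1020 and 574 at 5dpr, and 1250, 1160, 1370 and 1900 at 14dpr. All 8 libraries at 2dpr stood above all 16 libraries at baseline and 0dpr. The order by mean was immature 2dpr (6060 ± 2020), mature 2dpr, immature 5dpr, immature 14dpr, mature 5dpr, mature 14dpr, immature baseline, mature baseline, immature 0dpr and mature 0dpr (220 ± 83.2), and 2 steps had no overlap, from mature 14dpr to immature baseline and from there to mature baseline. Of 1648 exonic bases of Spp1, 309 (18.8%) are shared with Gm42793.

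Sparc, the collagen-binding osteonectin, was the most abundant member per length in immature baseline tissue. Its immature levels were 1950, 2970, 3900 and 3520 CPM at baseline, 3260, 3360, 1650 and 2840 at 0dpr, 2490, 2210, 2420 and 2960 at 2dpr, 4770, 5680, 5630 and 4860 at 5dpr, and 7800, 8840, 7140 and 8550 at 14dpr. Its mature levels were 2770, 2440, 1560 and 1900 CPM at baseline, 1150, 1170, 1070 and 1100 at 0dpr, 1900, 1820, 1470 and 1210 at 2dpr, 3910, 4510 and 4200 at 5dpr, and 6740, 5410, 7250 and 5700 at 14dpr. The 4 mature 0dpr libraries lay within a narrow band below every other group, and the ages did not overlap at 0dpr, 2dpr or 5dpr. Group means descended from 8080 ± 762 in immature 14dpr through mature 14dpr, immature 5dpr, mature 5dpr, immature baseline, immature 0dpr, immature 2dpr, mature baseline and mature 2dpr to 1120 ± 45.8 in mature 0dpr, with no overlap between immature 5dpr and mature 5dpr, between mature 5dpr and immature baseline, or between mature 2dpr and mature 0dpr.

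Per kilobase of exon, so that genes can be set against each other, immature baseline tissue held 814 CPM per kb of Sparc, 608 of Bglap, 558 of Spp1, 544 of Bglap2, 194 of Ibsp, 43.8 of Ank, 32.8 of Alpl, 7.34 of Enpp1 and 1.27 of Phospho1. At immature 2dpr Spp1 led with 3680 ± 1220 CPM per kb (n = 4), and at immature 14dpr Sparc led with 2130, ahead of Spp1 (1430), Ibsp (421) and Bglap (409). In bulk tissue, fewer cells of a type and less RNA per cell cannot be told apart in any of these levels.

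**Figure D2:**
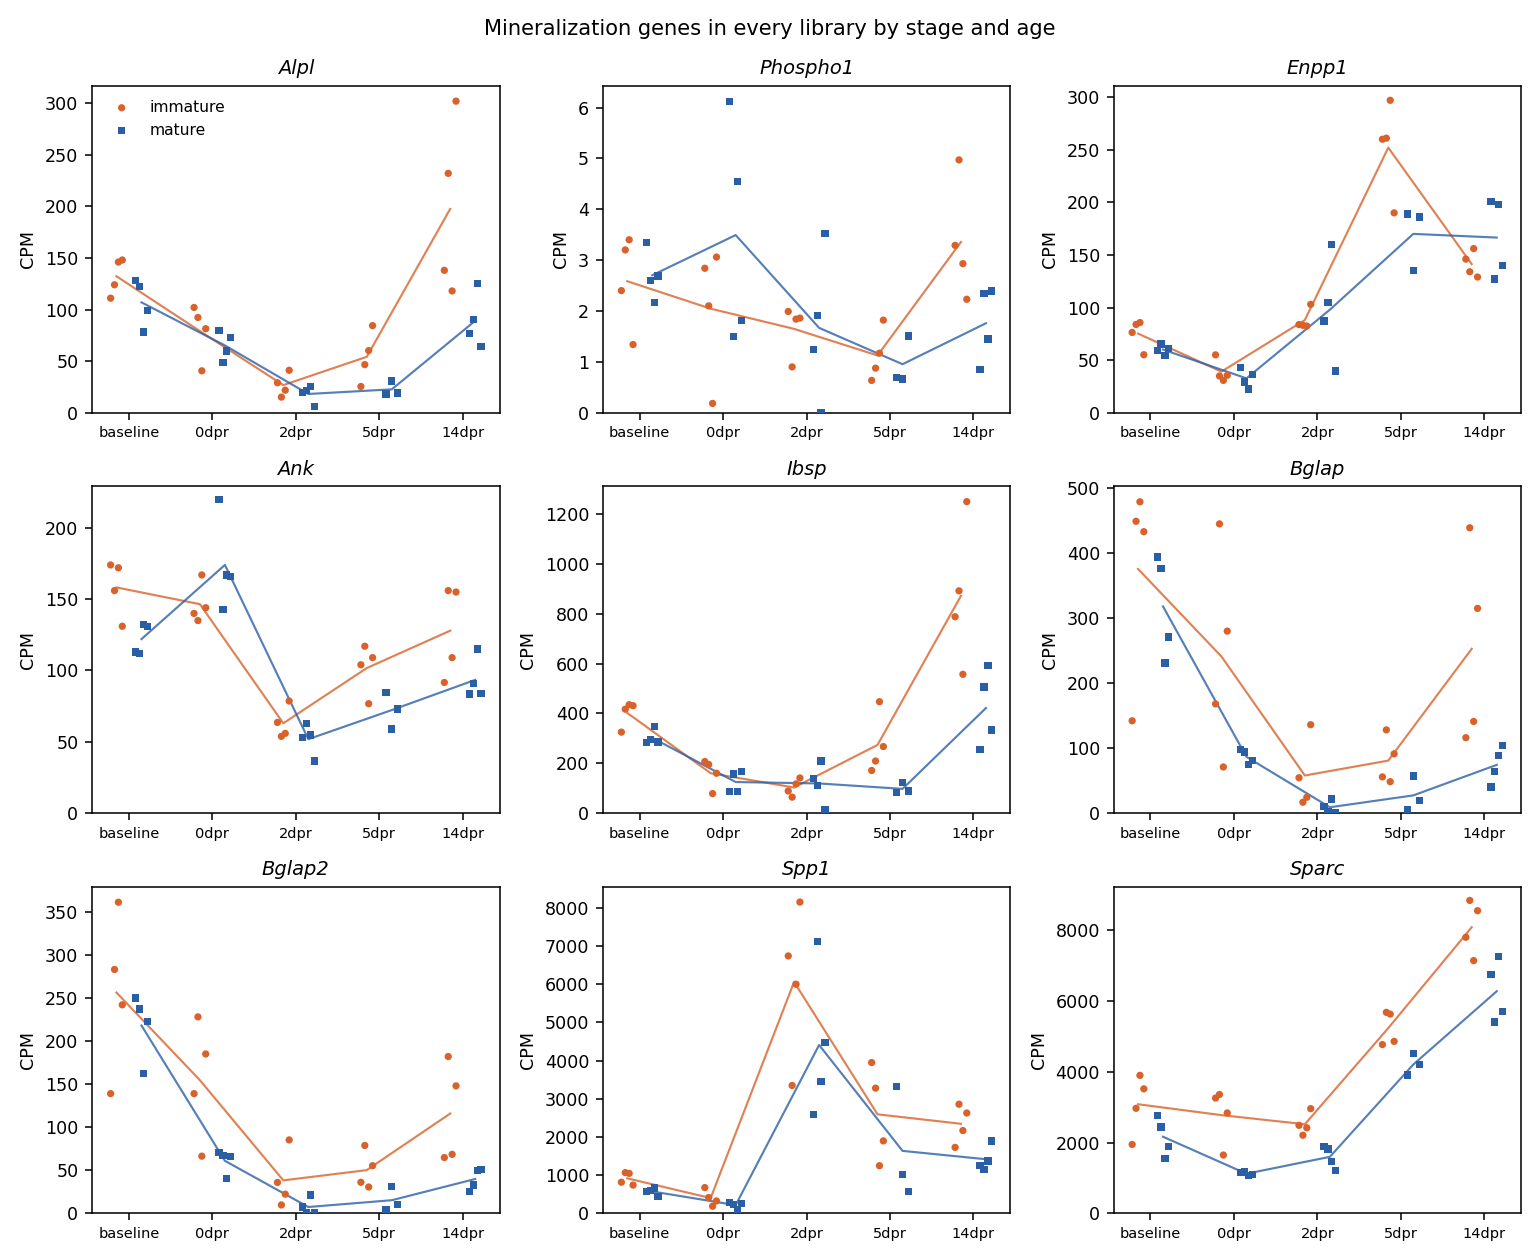
CPM of each of the 9 genes in every library (points) by stage, circles for immature and squares for mature mice, with lines through the group means. Spp1 peaks at 2dpr, when Alpl, Bglap, Bglap2 and Ank are low, Enpp1 is highest in immature 5dpr libraries, and Ibsp and Sparc are highest in immature 14dpr libraries.

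The first comparison asked what had changed on the day of resection relative to baseline. In immature mice Ibsp fell by a log2 value of 1.33 ± 0.415 (SE; edgeR adjusted p = 0.0349) and Enpp1 fell by 0.95 ± 0.25 (adjusted p = 0.0141), each lower in all 4 libraries than in any at baseline. These were 2 of 9 members lower, where 4.66% of the 21204 genes were lower at an adjusted p under 0.05, and 0 were higher, where 5.98% were. Alpl and Spp1 were also without overlap but their log2 values of -0.74 (adjusted p = 0.167) and -1.19 (0.0568) did not pass by edgeR, Spp1 passing by DESeq2 (0.0324), with all genes (0.0471) and under library totals (0.0364, range over alternatives 0.0324 to 0.252). In mature mice 6 members were lower, against 10.6% of all genes, and 1 was higher, against 11.9%. Sparc fell by a log2 value of 0.95 ± 0.202 (adjusted p = 0.000844), Bglap by 1.88 ± 0.658 (0.0364), Bglap2 by 1.84 ± 0.631 (0.0327), Spp1 by 1.39 ± 0.415 (0.0135), Ibsp by 1.28 ± 0.415 (0.0236) and Enpp1 by 0.88 ± 0.251 (0.00981), while Ank rose by 0.51 ± 0.173 (0.0297), all 7 without overlap between the stages. Overlap is given for members only, here and in the other comparisons. The share of all genes without overlap is not given, so it describes libraries and is no test. Alpl had a log2 value of -0.72 in mature mice (adjusted p = 0.14), and passed under library totals (0.0276) and with only the libraries compared (0.0219, range over alternatives 0.0219 to 0.154). Whether the ages differed in these changes was tested as an interaction, which called 0 of 9 members by edgeR (2 at unadjusted p under 0.05) and 0 by DESeq2, where 0.0141% of all genes were called, with Sparc at a log2 difference of 0.80 (adjusted p = 0.479) and Ank at -0.62 (0.532).

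Several of these 0dpr calls were close to the threshold and were lost when 1 library was left out. The immature Ibsp call was lost without any 1 of the 4 baseline libraries or of 0dpr replicates 3 and 4 (adjusted p 0.0508 to 0.169), the immature Enpp1 call without 0dpr replicate 3 (0.0898), both also with only the libraries compared (0.0682 and 0.0796, ranges over alternatives 0.0155 to 0.129 and 0.00779 to 0.0796), and immature Spp1 passed without 0dpr replicate 1 (log2 value -1.58, adjusted p = 0.0309). In mature mice leaving out 0dpr replicate 3 ended the calls of Spp1 (0.0784), Enpp1 (0.0679), Ibsp (0.0933), Bglap (0.098) and Bglap2 (0.107). Mature Ibsp was also lost without baseline replicate 3 or 0dpr replicate 1 (0.0544 to 0.0933 over the 3), and Bglap (0.0663 to 0.0808) and Bglap2 (0.0514 to 0.0676) without baseline replicates 1 or 2 or 0dpr replicates 1 or 4. With the libraries that stood apart left out together, mature Bglap2 (0.0537, range 0.00411 to 0.0537) and Spp1 (0.0596, range 0.00346 to 0.0596) did not pass. The Ank rise was lost without baseline replicates 1, 2 or 4 or 0dpr replicates 1 or 4 (0.0513 to 0.132), and with library totals as the only scaling it was 0.20 (adjusted p = 0.4, range over alternatives 0.0152 to 0.4), with all genes not passing either (0.0662). That scaling moved the median of all genes by -0.188 in immature and -0.31 in mature mice, and the share of calls that were higher from 56.2% to 24.4% and from 52.7% to 19.8%, so the changes at 0dpr are relative to the scaling. It moved the median of all genes by 0.114 in the interaction, and by 0.114 in that of 14dpr against baseline. The summed skeletal muscle markers were 99100, 113000, 118000 and 90600 CPM in immature baseline libraries and 129000, 154000, 236000 and 171000 at 0dpr. In mature libraries the muscle sum was 51400, 49900, 91200 and 96200 CPM at baseline and 178000, 134000, 266000 and 154000 at 0dpr, without overlap at either age, and its part in the members' values was not tested.

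From 0dpr to 2dpr, the first days of repair, members changed in opposite directions at both ages. Spp1 rose by a log2 value of 3.91 ± 0.456 in immature mice (adjusted p = 1.03e-08) and by 4.33 ± 0.466 in mature mice (1.26e-09), a ratio of group means of 15 and 20.1, with no overlap. Enpp1 rose by 1.18 ± 0.251 (0.000214) and 1.59 ± 0.254 (2.78e-06), the mature groups overlapping through 2dpr replicate 4. The osteocalcin genes fell, Bglap by 2.06 ± 0.664 (0.0113) in immature mice, where Bglap2 fell by 2.01 ± 0.638 (0.01), while in mature mice Bglap fell by 3.34 ± 0.725 (0.00024) and Bglap2 fell by 3.11 ± 0.697 (0.000349). Alpl fell by 1.57 ± 0.36 (0.000547) and 1.86 ± 0.366 (6.48e-05), and Ank by 1.22 ± 0.176 (5.83e-07) and 1.75 ± 0.178 (3.59e-10). For Alpl, Bglap and Bglap2 the immature stages overlapped and the mature ones did not. Mature Sparc also rose, by 0.51 ± 0.2 (0.0344).

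These were 2 members higher and 4 lower in immature mice, where 21.8% of all genes were higher and 22.2% lower, and 3 higher and 4 lower in mature mice, where 22.7% were higher and 24.9% lower. The interaction called 0 of 9 members by edgeR (2 at unadjusted p under 0.05) and 0 by DESeq2, with 0.0613% of all genes called, and gave Sparc a log2 difference of -0.65 (adjusted p = 0.381) and Ank 0.53 (0.417). Without immature 0dpr replicate 2 the immature Bglap value was -1.54 (adjusted p = 0.0641), and without immature 2dpr replicate 4 it was -2.92 (0.0015) and that of Bglap2 -2.76 (0.00184). Without mature 2dpr replicate 3 the mature values were -4.26 for Bglap (4.73e-05) and -4.50 for Bglap2 (6.92e-06). The mature Sparc rise was lost without 0dpr replicates 1, 3 or 4 or 2dpr replicates 1 or 2 (0.0516 to 0.113), and under RLE scaling (0.0767), with only the libraries compared (0.0871) and by DESeq2 (0.0547, range over alternatives 0.00354 to 0.0871). Library totals alone moved the median of all genes by 0.246 in immature and 0.263 in mature mice and the share of calls that were higher from 49.5% to 64.6% and from 47.6% to 61.7%. The macrophage markers rose with Spp1 at this step, with sums of 1790, 1980, 1190 and 1660 CPM in immature 0dpr libraries and 10400, 8890, 8370 and 9590 at 2dpr. In mature libraries the macrophage sum was 1270, 2440, 1460 and 1860 CPM at 0dpr and 9230, 9870, 8390 and 8040 at 2dpr, with all 12 markers higher at both ages and Lyz2 the most abundant. From 2dpr to 5dpr mean Spp1 went from 6060 to 2600 CPM in immature and from 4410 to 1640 in mature mice. The mean macrophage sum went from 9320 to 7930 and from 8880 to 8160 CPM over that step. The part of macrophages in the Spp1 level was not tested.

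Between 2dpr and 5dpr Sparc and Enpp1 rose at both ages. Sparc rose by a log2 value of 1.06 ± 0.202 in immature mice (adjusted p = 0.000638) and 1.40 ± 0.215 in mature mice (1.89e-05), without overlap at either age. Enpp1 rose by 1.52 ± 0.248 (8.51e-05), without overlap, and by 0.80 ± 0.26 (0.0338) with overlap. In immature mice Ibsp rose by 1.41 ± 0.416 (0.0285) and Ank by 0.69 ± 0.175 (0.00969), making 4 members higher against 4.37% of all genes and 0 lower against 3.68%, while edgeR had 6 members at unadjusted p under 0.05 and DESeq2 called 6. The shares of all genes given beside counts are those of edgeR. In mature mice 2 members were higher against 8.16%, and Spp1 alone was lower, against 6.38%, falling by 1.43 ± 0.457 (0.0306) with overlap. The immature values of Spp1, -1.22 (0.0602), and Alpl, 1.03 (0.0709), and the mature values of Ank, 0.48 (0.0804), and Bglap, 1.69 (0.124), did not pass by edgeR. The interaction called 0 of 9 members by edgeR (1 at unadjusted p under 0.05) and 0 by DESeq2, where 0.0% of all genes were called, with Ibsp at 1.70 (0.545).

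Leaving out libraries moved the 5dpr calls. Immature Ibsp was lost without 2dpr replicates 1, 2 or 3 or 5dpr replicate 4 (adjusted p 0.0583 to 0.162), and Alpl passed without 2dpr replicate 4 or 5dpr replicate 2 (0.0292 to 0.034). By DESeq2 it passed too (0.0339, range over alternatives 0.0339 to 0.325). Immature Spp1 passed without replicate 2 of either stage (0.0404 to 0.0433), by DESeq2 (0.0276), with all genes (0.0472) and with only the libraries compared (0.0313, range 0.0276 to 0.209). Mature Spp1 was lost without 2dpr replicate 2 or 5dpr replicates 3 or 4 (0.105 to 0.199) and was -2.47 (0.000847) without 5dpr replicate 1, whose 3320 CPM was above the other 5dpr libraries. Mature Enpp1 was lost without 2dpr replicates 1 or 4 or 5dpr replicates 1 or 4 (0.0764 to 0.126), under library totals (0.0813) and without the libraries that stood apart (0.0897, range over alternatives 0.0326 to 0.365). Without 2dpr replicate 3 mature Bglap rose by 2.61 (0.0253), a call that Bglap2 gained as well (1.15 in the main fit, adjusted p = 0.306, and up to 2.54 over the libraries left out), and without 2dpr replicate 2 mature Ank rose by 0.59 (0.0409). With only the libraries compared, mature Spp1 (0.288, range 0.00786 to 0.288) and Enpp1 (0.365) did not pass.

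From 5dpr to 14dpr Alpl and Ibsp rose at both ages. Alpl rose by a log2 value of 1.86 ± 0.356 in immature mice (adjusted p = 0.00128) and 1.97 ± 0.401 in mature mice (0.00243), a ratio of means of 3.65 and 3.93. Ibsp rose by 1.67 ± 0.417 (0.0178) and 2.12 ± 0.472 (0.00607), and none of these 4 comparisons had overlapping libraries. In immature mice 2 members were thus higher against 1.73% of all genes and 1 lower against 1.45%, the latter Enpp1 at -0.84 ± 0.244 (0.0498), just under the threshold (6 members at unadjusted p under 0.05, and 4 called by DESeq2). In mature mice 2 were higher against 1.95% and 0 lower against 2.23% (3 members at unadjusted p under 0.05, and 3 called by DESeq2 in either direction). Immature Bglap (1.65, adjusted p = 0.196), Sparc (0.63, 0.0826) and Phospho1 (1.53, 0.217) and mature Sparc (0.58, 0.135) did not pass, although the libraries of Sparc and Phospho1 did not overlap where named. With only the libraries compared, immature Bglap (0.0245, range over alternatives 0.0245 to 0.271), Sparc (0.0159, range 0.0159 to 0.233) and Phospho1 (0.0201, range 0.0201 to 0.271) passed, as did mature Sparc (0.0362, range 0.0362 to 0.172), and by DESeq2 Sparc passed at both ages (0.0275 and 0.0455). The interaction called 0 of 9 members by edgeR (1 at unadjusted p under 0.05) and 0 by DESeq2, where 0.0% of all genes were called, with Enpp1 at -0.81 (1.0). The immature Enpp1 call was lost without any 1 of the 4 libraries at 14dpr or of 5dpr replicates 2, 3 and 4 (0.079 to 0.158), and under RLE factors (0.0597), library totals (0.0808) and both other gene filters (0.052 and 0.0544, range over alternatives 0.0018 to 0.0808), and the immature Ibsp call without 14dpr replicate 4 or 5dpr replicates 2 or 3 (0.0645 to 0.0968).

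The comparison of 14dpr with baseline asked how the callus differed from the starting tissue. It shares baseline with the 0dpr one and 14dpr with the one from 5dpr. In immature mice 4 members were higher, against 16.4% of all genes, and 0 lower, against 15.1% (4 at unadjusted p under 0.05 by edgeR, and 4 called by DESeq2). Sparc rose by a log2 value of 1.39 ± 0.204 (adjusted p = 1.51e-06), Spp1 by 1.35 ± 0.413 (0.0109), Ibsp by 1.12 ± 0.411 (0.0356) and Enpp1 by 0.91 ± 0.246 (0.00404), all without overlap. In mature mice 3 members were higher against 17.1% of genes, Sparc by 1.53 ± 0.204 (2.66e-07), Enpp1 by 1.47 ± 0.249 (1.4e-05) and Spp1 by 1.30 ± 0.413 (0.0131), all without overlap. The osteocalcin genes were lower in mature 14dpr, 2 members against 16.4% of genes, Bglap falling by 2.10 ± 0.662 (0.0127) and Bglap2 by 2.44 ± 0.645 (0.00296), with no library overlapping. The interaction for this comparison called 0 of 9 members by edgeR (0 at unadjusted p under 0.05) and 0 by DESeq2, with 0.0472% of all genes called, so a difference between ages in the osteocalcin change was not shown. Immature Ibsp was lost without any 1 of the 4 baseline libraries or of 14dpr replicates 2 and 4 (0.0549 to 0.128), and mature Ank (-0.38, 0.0864) passed without 14dpr replicate 3 (-0.50, 0.0377), under library totals (0.0382) and with only the libraries compared (0.0324, range over alternatives 0.0324 to 0.197).

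**Figure D3:**
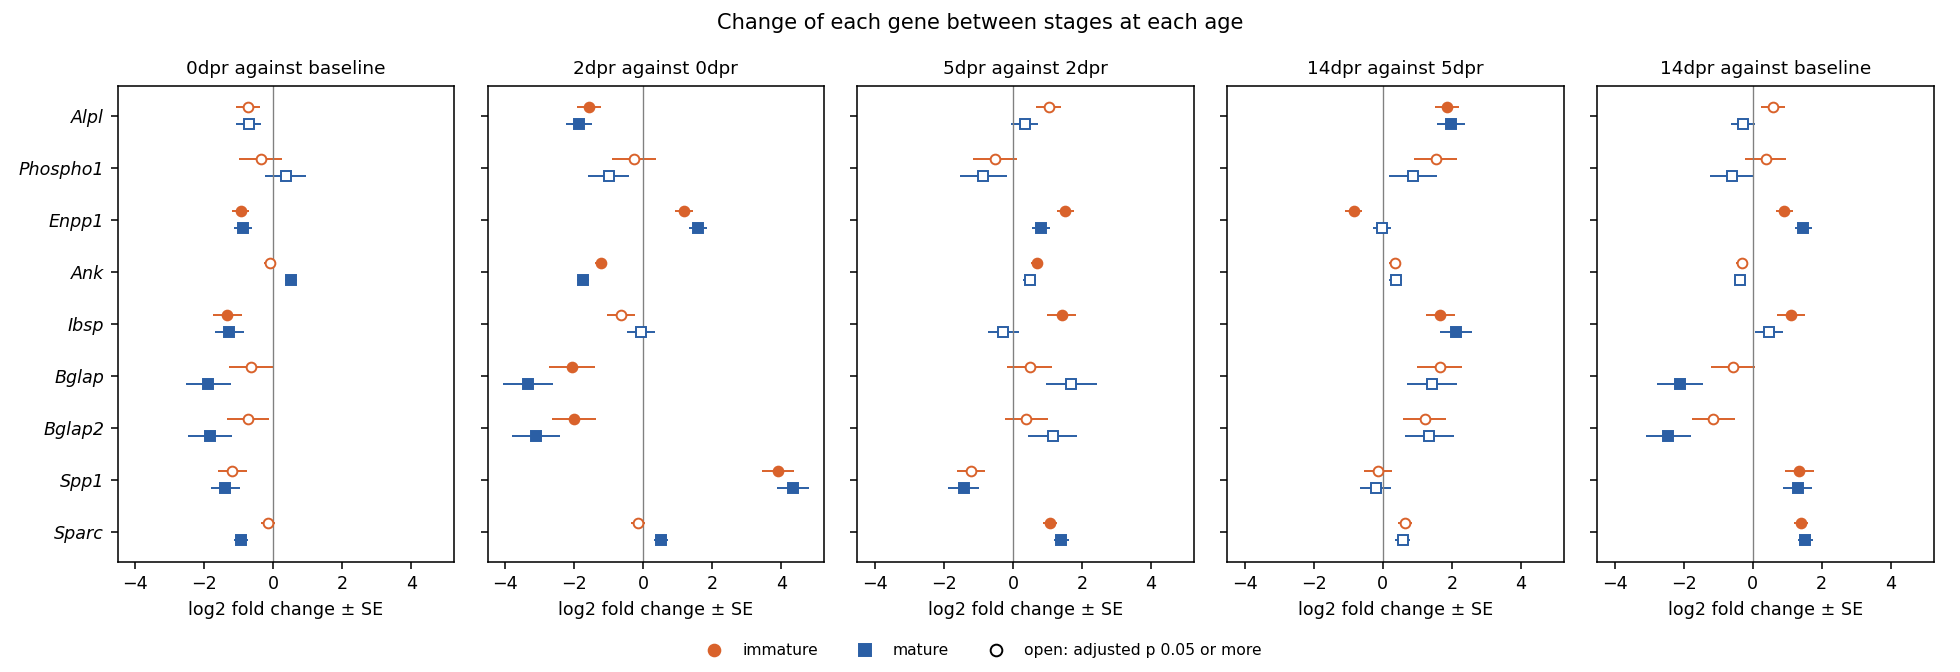
Log2 fold change ± SE (horizontal) of each of the 9 genes in 5 comparisons between stages, circles for immature and squares for mature mice, filled where the adjusted p was under 0.05. Spp1 lies near 4 at 2dpr against 0dpr at both ages, and Alpl and Ibsp are both to the right at 14dpr against 5dpr.

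The age comparison, the main question of the study, set immature against mature libraries at each stage. At 0dpr Sparc was higher in immature tissue by a log2 value of 1.31 ± 0.203 (adjusted p = 0.000297), a ratio of means of 2.48, with all 4 immature libraries above all 4 mature ones. It was 1 of 9 members higher, where 0.571% of all genes were higher, and 0 were lower, where 0.156% were (4 members at unadjusted p under 0.05 by edgeR, and 1 called by DESeq2). It passed without any 1 of the 8 libraries, but with only those 8 in the fit its adjusted p was 0.235 (range over alternatives 2.11e-08 to 0.235). Markers of fibroblasts and stroma (3 of 7 called higher) summed to 7970, 7050, 6740 and 6940 CPM in the immature and 2550, 2580, 2730 and 3340 in the mature 0dpr libraries, without overlap, led by Col3a1 and Dcn. Osteoblast markers (1 of 9 called higher) summed to 20800, 17700, 4030 and 16000 against 8840, 5240, 5510 and 4580 CPM, and the part of either list in the Sparc difference was not tested. At baseline 0 members were called by edgeR (2 at unadjusted p under 0.05) and 0 by DESeq2, where 0.358% of genes were higher and 0.226% lower, and Spp1 alone did not overlap. With library totals as the only scaling the share of baseline calls that were higher moved from 61.3% to 45.9%. Sparc at baseline was 0.51 (adjusted p = 0.29) and passed (0.65, 0.0444, range over alternatives 0.0444 to 0.474) when the libraries that stood apart were left out.

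At 2dpr edgeR called 0 members (3 at unadjusted p under 0.05), where it called 0.457% of genes higher and 0.17% lower, and DESeq2 called 3 members. The share of all genes called by DESeq2 is not given, here or beside its other counts. Bglap was higher in immature tissue by a log2 value of 2.75 ± 0.713 (edgeR adjusted p = 0.0554), and by 2.67 in DESeq2 (0.0133), with all genes passing too (0.0298), over a range of 0.0133 to 0.699 across alternatives. Bglap2 had 2.44 ± 0.687 (0.0878, DESeq2 0.0493, range 0.0493 to 0.848), their summed reads 2.58 (0.0691), and Sparc 0.66 ± 0.201 (0.125, DESeq2 0.0445, range 0.0445 to 0.61). Leaving out immature replicates 2 or 3 or mature replicate 3 brought Bglap under the threshold (0.0246 to 0.0496), and leaving out mature replicate 3 did so for Bglap2 (3.83, 0.00827). Only Sparc was without overlap at 2dpr, with a ratio of means of 1.58.

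At 5dpr all 9 members had a higher fitted level in immature tissue (46.4% of all genes did), Phospho1 at 0.28 running from -0.03 to 0.77 with 1 library left out, and none passed, edgeR calling 0 (6 at unadjusted p under 0.05) and DESeq2 0, in a comparison where 0.0% of all genes were called. Counts at unadjusted p under 0.05, here and in the other comparisons, stand without the share of all genes at that level. They are therefore not read as a result. Ibsp was at 1.49 ± 0.46 (adjusted p = 0.524), Alpl at 1.26 (0.528), Bglap at 1.55 (0.963) and Enpp1 at 0.57 (0.962), and Ibsp, Sparc and Enpp1 did not overlap, with ratios of means of 2.81, 1.25 and 1.48. At 14dpr 8 of 9 members had a fitted log2 difference above 0, passing or not, against 48.2% of all genes, while edgeR called 0 members (5 at unadjusted p under 0.05) and DESeq2 0, where 0.00943% of genes were called. Bglap had a log2 difference of 1.77 (adjusted p = 0.923) and Bglap2 of 1.54 (0.978), without overlap and with ratios of means of 3.4 and 2.9, and Alpl stood at 1.15 (0.68) and Ibsp at 1.05 (0.967). At baseline, 0dpr and 2dpr the members with a fitted difference above 0, passing or not, numbered 8, 7 and 6 of 9, against 49.7%, 48.0% and 54.0% of all genes. With 1 library left out the direction turned in some fits for Phospho1 at baseline (-0.24 to 0.15) and for Phospho1 (-0.45 to 0.61), Ibsp (-0.57 to 0.22) and Enpp1 (-0.41 to 0.19) at 2dpr. The median log2 difference of the members was 0.33, 0.36, 0.46, 0.66 and 0.92 from baseline to 14dpr, where that of all genes lay between -0.02 and 0.04. A widening with stage was not shown. The interaction of 14dpr against baseline called 0 of 9 members, with 0 at unadjusted p under 0.05. Bglap and Bglap2 can also share reads, so the 9 values behind each median are not independent.

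**Figure D4:**
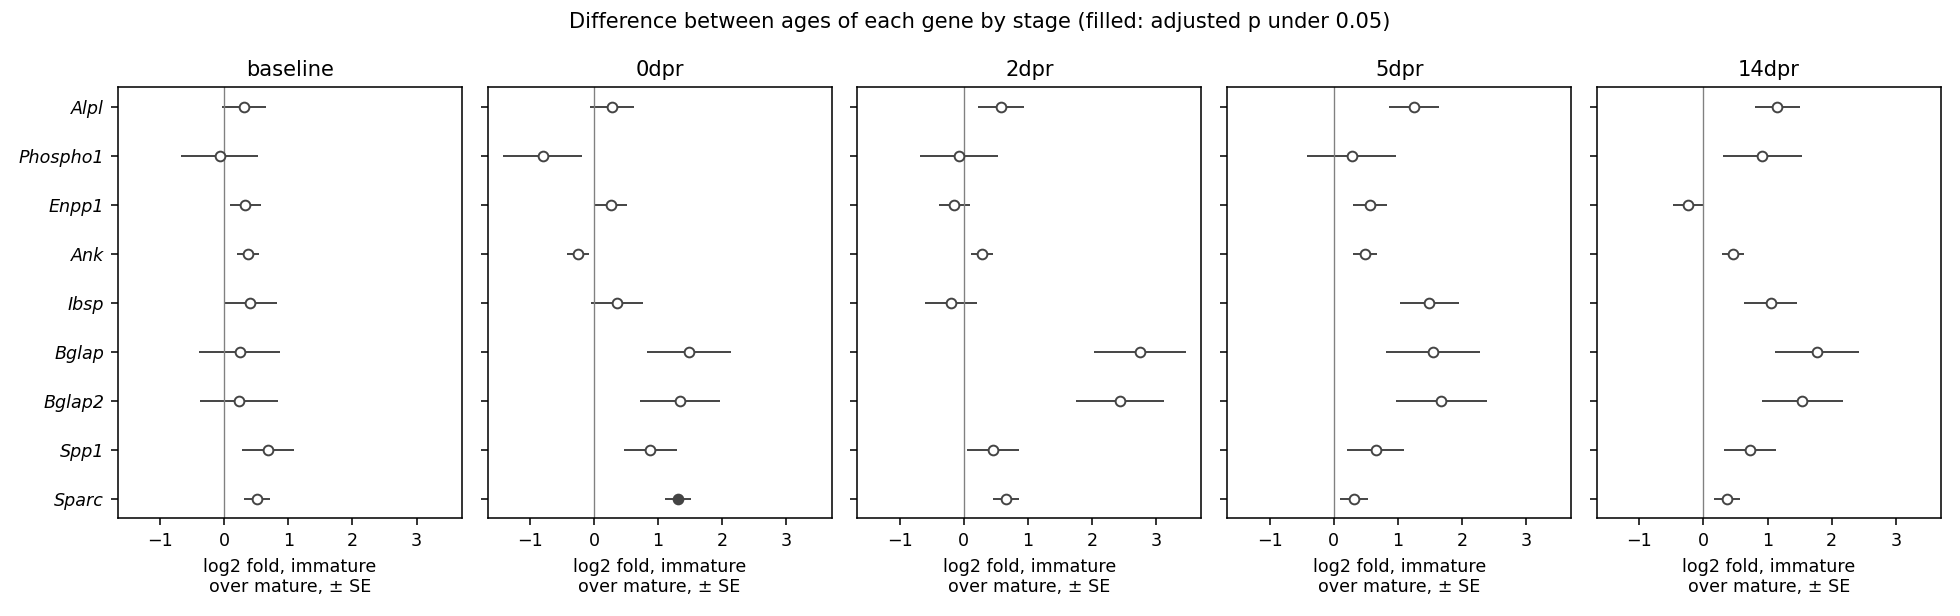
Log2 difference ± SE (horizontal, immature over mature) of each of the 9 genes at each stage, filled where the adjusted p was under 0.05. Most points lie to the right of 0 and Sparc at 0dpr is the filled point.

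Other genes of mineralization were followed as a list of 42, of which 41 were in the table and Dspp was not. At 0dpr against baseline 4 were higher and 4 lower in immature mice, against 5.98% and 4.66% of all genes (median log2 value of the list -0.33, all genes 0.0), and 4 higher and 15 lower in mature mice, against 11.9% and 10.6% (-0.61, all genes -0.02). The immature genes named by size were Sparcl1 (0.81), Anxa6 (0.48), Ahsg and Abcc6 upward and Mepe (-2.61), Itgb3 (-0.95), Tmem119 (-0.60) and Cd44 (-0.56) downward. Ahsg and Abcc6 rested on immature 0dpr replicate 1, with 5987 and 210 reads against at most 17 and 6 in the other 0dpr libraries, and without it their adjusted p was 0.81 and 0.741. In mature mice Sparcl1 (1.19), Slc20a2 (0.96), Anxa6 (0.59) and Dcn (0.49) were higher, and Ifitm5 (-1.63), Dmp1 (-1.55), Cthrc1 (-1.46) and Phex (-1.40) lower, with adjusted p up to 0.0316. Under library totals mature Dcn was 0.19 (0.403) and immature Anxa6 0.29 (0.0728). With only the libraries compared, mature Dcn (0.121) and immature Anxa6 (0.124), Sparcl1 (0.0923), Ahsg (0.123) and Abcc6 (0.142) did not pass. The same held for immature Itgb3 (0.0796), Tmem119 (0.141) and Cd44 (0.114). With all genes, mature Dcn (0.069) and immature Cd44 (0.0617) did not pass. Without the libraries that stood apart, mature Dcn (0.0597) and Dmp1 (0.0622) and immature Anxa6 (0.119) were lost. So were immature Itgb3 (0.0622), Tmem119 (0.249) and Cd44 (0.233). Under RLE factors immature Tmem119 (0.0507) and Cd44 (0.0655) were lost, and with filterByExpr genes Cd44 (0.0555).

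At 2dpr against 0dpr 10 of the 41 rose and 13 fell in immature mice, against 21.8% and 22.2% of all genes (median -0.34, all genes -0.04), and 11 rose and 18 fell in mature mice, against 22.7% and 24.9% (-0.49, all genes -0.05). Cd44, a receptor of osteopontin, rose by a log2 value of 2.43 and 2.83 in immature and mature mice, Anxa2 by 2.18 and 2.71 and Cthrc1 by 2.13 and 3.32, with Fam20c (1.80, immature) and Postn (2.14, mature). Omd (-1.80, immature) and Dlx5 (-3.55, mature), the latter an osteoblast transcription factor, were lower. Ahsg was lower in both (immature -8.00, again through 0dpr replicate 1, without which the adjusted p was 0.854, and mature -3.70). Bglap3, related to the osteocalcin genes and with at most 8 reads at immature 0dpr, Abcc6 and Sost were at or under 3 reads in all 2dpr libraries of the age where they were called, so no fold is given. The immature Bglap3 call (adjusted p = 0.0493) was lost without any 1 of 6 libraries (0.074 to 0.138). It was also lost under library totals (0.0741), with all genes (0.0939) and with only the libraries compared (0.0688). With the replicate number as a block it did not pass (0.0597).

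Between 2dpr and 5dpr the list had 11 genes higher and 2 lower in immature mice, against 4.37% and 3.68% of all genes (median 0.42, all genes 0.01) and 13 higher and 2 lower in mature mice, against 8.16% and 6.38% (0.71, all genes 0.06). The collagen-matrix genes Postn (2.35 and 2.53), Cthrc1 (1.35 and 2.21) and Col1a2 (1.09 and 1.88) rose at both ages. Dcn (1.03) rose in immature and Col1a1 (2.03) in mature mice. Cd44 fell at both ages (-0.57 and -0.60), as did Fam20c in immature (-1.26) and Nt5e in mature mice (-1.09). The immature Cd44 call (adjusted p = 0.0499) was lost under RLE factors (0.0607), library totals (0.0716), filterByExpr genes (0.0504) and all genes (0.0689). Mature Cd44 (0.0392) did not pass with only the libraries compared (0.239). Fitting a replicate block ended the Cd44 call in immature (0.148) and in mature mice (0.0528). From 5dpr to 14dpr 13 rose and 1 fell in immature mice, against 1.73% and 1.45% of all genes (median 0.77, all genes -0.02) and 11 rose and 1 fell in mature mice, against 1.95% and 2.23% (0.97, all genes -0.02). The largest rises were those of Col10a1, a collagen of hypertrophic cartilage, at 5.77 in immature mice, Panx3 at 3.15 in mature mice, and at both ages Phex at 3.55 and 3.61, Dmp1 at 3.70 and 3.06 and Mepe at 2.96 and 3.35. Slc20a1, a phosphate transporter, fell in immature mice (-0.86) and Anxa6 in mature mice (-0.46). The mature Anxa6 call (adjusted p = 0.0427) was lost under RLE factors (0.0624), with filterByExpr genes (0.0555) and with all genes (0.17). With the replicate number as a block it did not pass either (0.0564).

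Against baseline, 25 of the 41 were higher and 0 lower at immature 14dpr, against 16.4% and 15.1% of all genes (median 0.93, all genes -0.04), and 19 were higher and 4 lower at mature 14dpr, against 17.1% and 16.4% (0.67, all genes -0.03). Cthrc1 rose by a log2 value of 3.70 and 3.84, Phex in immature mice by 1.89, Postn in mature mice by 4.00 and Panx3 in mature mice by 2.95, while Itgb3 (-1.18), Vdr (-0.99) and Slc20a1 (-0.46) fell in mature mice. With all genes Vdr (adjusted p = 0.0546) and Slc20a1 (0.0562) did not pass, nor did Vdr with the replicate number as a block (0.0659). Col10a1 was at 254 ± 142 CPM at immature and 43.5 ± 42.6 CPM at mature 14dpr against 0.658 ± 0.282 and 0.0542 ± 0.0627 at baseline, and Panx3 at 22.5 ± 7.99 against 0.263 ± 0.101 in immature mice. Between ages, Postn was higher in immature tissue at baseline (1.94) and 0dpr (2.24), Cthrc1 (2.17), Col1a2 (1.25) and Bgn (0.78) at 0dpr, and Col1a2 (1.27) at 2dpr, where 0.358%, 0.571% and 0.457% of all genes were higher at baseline, 0dpr and 2dpr, with 0 of 41 lower at those stages and 0 in either direction at 5dpr and 14dpr. With the replicate number as a block Col1a2 between ages at 0dpr did not pass (0.0728), and with only the 8 libraries of that stage in the fit none of its 4 genes did, Postn (0.0784), Cthrc1 (0.166), Col1a2 (0.694) or Bgn (0.622). The interactions called 0 of 41. Of 549 fits of the named pathway calls with 1 library left out, 87 lost a call, and 14 of 70 were lost with only the libraries compared and 6 of 46 without the libraries that stood apart. At 0dpr against baseline, Mepe (0.0716) and Itgb3 (0.0871) were lost without immature 0dpr replicate 3 and Ifitm5 (0.0671) without mature 0dpr replicate 3, and Tmem119 (0.0643 to 0.24), immature Cd44 (0.053 to 0.212), mature Dcn (0.0563 to 0.164) and mature Phex (0.0559 to 0.111) without any of several libraries, and mature Dmp1 without baseline replicate 2 or 0dpr replicate 3 (0.0735 to 0.1). Between ages at 0dpr this held for Col1a2 (0.0534 to 0.153) and Bgn (0.0966 to 0.361), at 2dpr against 0dpr for mature Ahsg (0.0538 to 0.149), and at 5dpr against 2dpr for immature Col1a2 (0.0585 to 0.075) and for Cd44 (0.0858 to 0.157 in immature and 0.0687 to 0.214 in mature mice). At 14dpr against 5dpr Mepe was lost without immature 5dpr replicate 4 (0.0579), and mature Mepe (0.0506 to 0.119), Panx3 (0.124 to 0.145) and Anxa6 (0.0559 to 0.217) without any of several. Against baseline, Slc20a1 was lost without mature 14dpr replicate 2 (0.0967), and Vdr (0.0554 to 0.244) without any of several.

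Marker lists of the cell types in the tissue were summed in each library. Skeletal muscle markers (20 genes, Ttn most abundant) held 105000 ± 12700, 172000 ± 45600, 25800 ± 5360, 38700 ± 5330 and 24100 ± 5350 CPM over the 5 stages in immature tissue, while mature tissue had 72200 ± 25000, 183000 ± 58300, 22600 ± 7080, 37800 ± 14600 and 30000 ± 8750. All 20 were lower at 2dpr than at 0dpr at both ages, where 22.2% of all genes were called lower in immature and 24.9% in mature mice. Of osteoblast markers other than the members (9 genes, Col1a1 or Col1a2 most abundant), sums were 18300 ± 6010, 14600 ± 7340, 11700 ± 2740, 24500 ± 6880 and 40200 ± 8650 CPM in immature and 14400 ± 5280, 6040 ± 1900, 4500 ± 1180, 17300 ± 1080 and 32600 ± 7770 in mature mice. The osteoblast markers called lower at 0dpr against baseline were 1 of 9 in immature and 6 of 9 in mature mice. Of all genes, 4.66% and 10.6% were called lower there. All 9 markers are also on the mineralization list.

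Macrophage markers (12 genes) held 2200, 1660, 9320, 7930 and 8910 CPM in immature and 3120, 1760, 8880, 8160 and 9230 in mature mice over the stages. Osteoclast markers (11 genes) held 1850, 883, 868, 1380 and 4410 CPM in immature and 1770, 798, 621, 917 and 2410 in mature mice, with Ctsk most abundant at 14dpr. Chondrocyte markers (13 of 14 in the table, Matn1 not) held 322, 305, 188, 466 and 2310 CPM in immature and 337, 161, 103, 155 and 1810 in mature mice, with 0 reads of Ihh in all mature 5dpr libraries, and 12 of 13 were higher at 14dpr than at baseline at both ages. Of all genes, 16.4% were called higher in that comparison in immature and 17.1% in mature mice. The chondrocyte sums of the 14dpr libraries were 3900, 1230, 2100 and 2000 CPM in immature and 2000, 942, 3940 and 346 in mature mice, the last within the mature baseline range of 252 to 448. Osteocyte markers (6 genes) held 126, 67.1, 199, 140 and 396 CPM in immature and 121, 65.6, 266, 135 and 215 in mature mice, led by Pdpn, which other cells also express, at 2dpr, 5dpr and mature 14dpr.

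Fibroblast and stroma markers (7 genes, Col3a1 most abundant except in mature 0dpr, where Dcn was) held 6530, 7170, 10900, 28200 and 27000 CPM in immature and 2550, 2800, 6650, 23900 and 31900 in mature mice. Of these, 3 of 7 were higher in immature tissue at baseline and 3 of 7 at 0dpr, where 0.358% and 0.571% of all genes were called higher. Endothelial markers (7 genes) lay between 382 and 709 CPM. Neutrophil markers (9 genes, S100a9 first) held 8430, 3100, 1910, 3790 and 2380 CPM in immature and 13400, 4080, 2940, 1750 and 2440 in mature mice, and all 9 were lower at 14dpr than at baseline at both ages. Of all genes, 15.1% were called lower in that comparison in immature and 16.4% in mature mice. B and plasma cell markers (8 genes) held 496, 312, 153, 160 and 340 CPM in immature and 1420, 1830, 200, 185 and 348 in mature mice. Erythroid markers (8 genes, Hbb-bs first) held 18200, 12900, 3260, 2900 and 3960 CPM in immature and 21300, 18900, 2540, 3050 and 1980 in mature mice. The part of any of these lists in the members' levels was not tested.

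**Figure D5:**
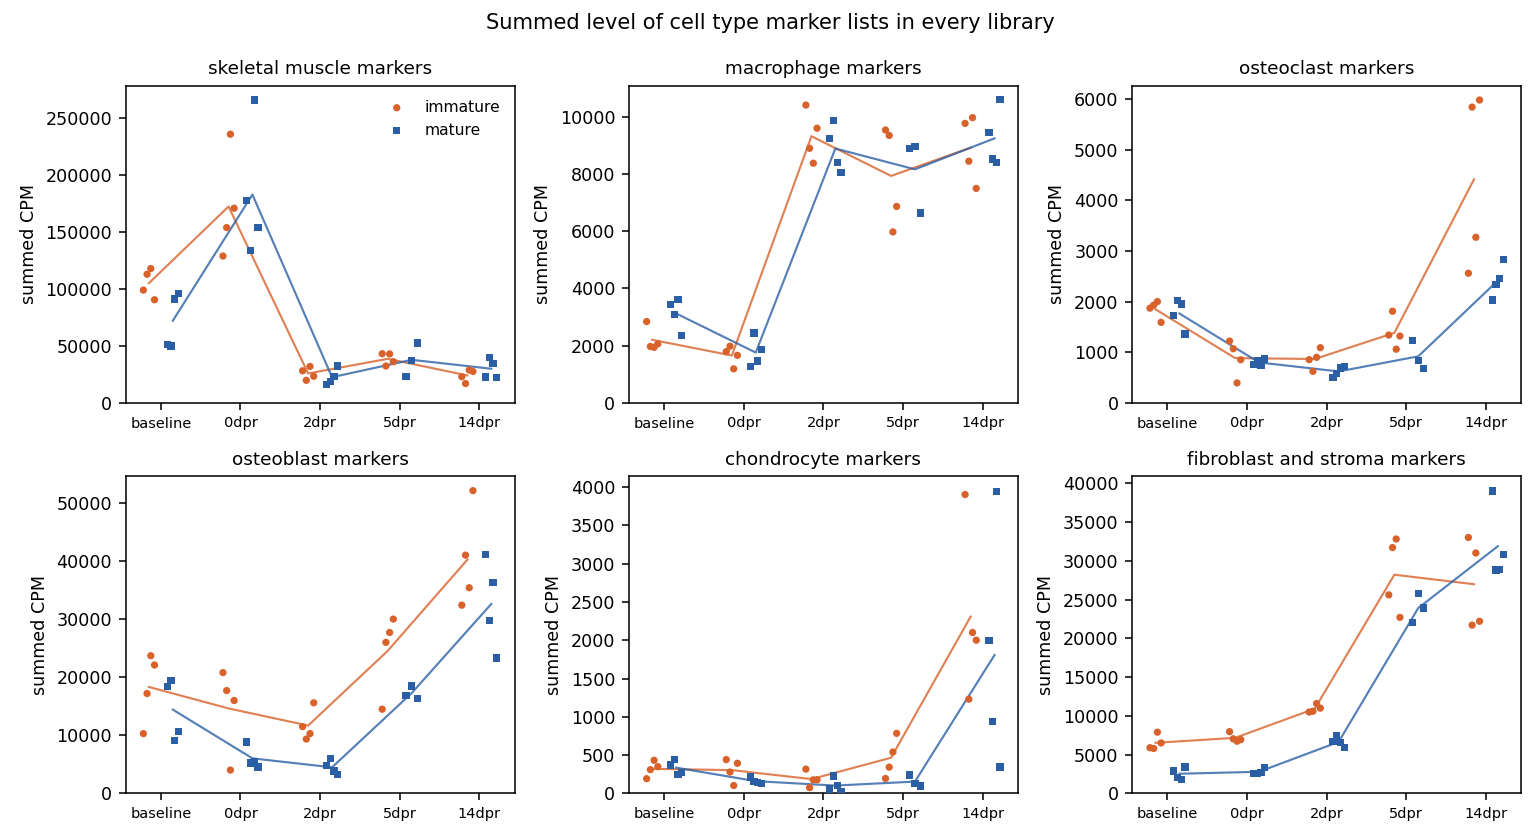
Summed CPM of 6 cell type marker lists in every library (points) by stage, circles for immature and squares for mature mice, with lines through the group means. Muscle markers are highest at 0dpr, macrophage markers are high from 2dpr on, and osteoclast and chondrocyte markers are highest at 14dpr.

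Across all 39 libraries, which share the stages and the tissue mix, the members did not follow one pattern. Pearson r of log2 CPM, given as a description with n = 39, was 0.99 between Bglap and Bglap2, 0.87 between Alpl and Bglap, 0.86 between Alpl and Ibsp, and 0.74 between Sparc and Enpp1. Spp1 went the other way from Ank (-0.67) and Bglap (-0.43) and had 0.63 with Enpp1. Among 16147 genes with a mean of at least 1 CPM, those most like Alpl were Col11a2 (0.955), Wif1 (0.949) and Fgfr2 (0.937), and those most like Ibsp were Mmp16 (0.901), Cdh11 (0.9) and Dcstamp (0.872). Bglap was followed, after Bglap2, by Col13a1 (0.912) and Col22a1 (0.901), and Bglap2, after Bglap, by Col13a1 (0.9) and Ackr4 (0.893). Among the genes most like Spp1 were Atp6v1h (0.925) and Galnt6 (0.917). Sparc was most like Gxylt2 (0.954), Olfml2b (0.95) and Adamts2 (0.948), and Enpp1 like Srpx2 (0.944), Tnc (0.934) and Dnm3os (0.928). Ank was most like Slc8a3 (0.909), Tnfrsf19 (0.884) and Abca8a (0.883), and Phospho1, at its few reads, like CT010467.1 (0.762), Gigyf1 (0.745) and Dipk1b (0.743).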

How the data were processed

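With STAR 2.5.2a the authors aligned 150 bp paired reads against GRCm38 and obtained gene counts, and they deposited raw counts for all genes and for a filtered gene set whose rule is not given in the sources used here. The third deposited table holds a CPM signal, which the authors scaled by TMM factors, and it equalled CPM recomputed from the filtered counts. Tests were edgeR 4.0.16 quasi-likelihood F tests in R 4.3.3 (limma 3.58.1) on the filtered counts of 39 libraries, in one fit with 1 coefficient per group, 15 comparisons between groups and 5 interactions. P-values were adjusted by Benjamini-Hochberg over 21204 genes at a threshold of 0.05, and the standard error is the fold change over the square root of F. The code was tested on simulated data.

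Alternatives were RLE factors, library totals only, filterByExpr genes, all genes with at least 1 count, a replicate block, a threshold of 0.01, only the libraries compared, Bglap and Bglap2 summed, DESeq2 1.42.0, and each library left out. Leaving out together the libraries that stood apart was chosen after seeing the data. All 9 members were reported in every comparison. Up to 4 other mineralization genes were named per direction, from those with the largest called changes, and for likeness up to 3 genes among those with the highest Pearson r of log2 CPM (prior count 2). Members and lists were chosen with earlier results of these data known.

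Same-numbered libraries of the ages deviated together at 0dpr (correlation of deviations from group means 0.178 to 0.296 over 4 pairs), by which the numbers pair the samples there, although the labels do not say what a number marks. In no other comparison did every pair pass 0.1. No libraries of a group agreed within counting noise.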

Additional observations from a re-analysis of the deposited data

Results flagged for a closer look

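In groups of 4 libraries, 81 sets of member values were examined for a library whose gap to its nearest neighbour exceeded Dixon's 95% critical value of 0.829 as a share of the group's range. Such a value arises by chance in about 1 in 20 groups, and 5 of the 81 did. Ibsp was at 325 CPM in immature baseline replicate 2, with the others at 417 to 435. Bglap was at 142 CPM in the same library, against 433 to 479. Bglap2 was at 40.4 CPM in mature 0dpr replicate 3, against 66.1 to 70.7. Phospho1 was at 0.9 CPM in immature 2dpr replicate 2, against 1.84 to 1.99. Enpp1 was at 103 CPM in immature 2dpr replicate 4, against 82.4 to 83.8.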

How the results depend on the processing

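No member value with an unadjusted p under 0.05 changed direction under any alternative (0 of 81 in each full set). Of the 81, 79 kept direction and side of the threshold under RLE factors, 75 under library totals, 80 with filterByExpr genes, 76 with all genes, 76 with the replicate block, 72 in DESeq2 (1 lost, 8 gained) and 68 with only the libraries compared (6 lost, 7 gained). With 1 library left out 608 of 680 kept theirs, 60 lost a call and 12 gained one.

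Counts of members called that moved by over 1.5 times were these, and the cause was not tested except for the stricter threshold. With only the libraries compared the count was 0 for ages at 0dpr, 0 for 0dpr against baseline in immature mice, 6 for 14dpr against 5dpr in immature mice and 1 for 5dpr against 2dpr in mature mice. At a threshold of 0.01 it was 0 for 0dpr against baseline, 1 for 14dpr against 5dpr and 2 for 14dpr against baseline in immature mice, and 2, 1 and 3 for 0dpr against baseline, 5dpr against 2dpr and 14dpr against baseline in mature mice. Between ages at 2dpr it was 1 with all genes and 3 in DESeq2, and at baseline 1 without the libraries that stood apart.

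With the replicate block the count was 1 for 0dpr against baseline and 2 for 14dpr against baseline in immature mice, and 5 member calls were lost, of Ibsp at 0dpr against baseline (adjusted p 0.129), 5dpr against 2dpr (0.0837), 14dpr against 5dpr (0.0596) and 14dpr against baseline (0.0698) and of Spp1 in the last (0.0558), all in immature mice. Of 70 named pathway calls 12 were lost with the block. It changed no other member call, and Sparc between ages at 0dpr kept its call (0.000924). In 0 of 14 comparisons with at least 3 pairs did every sample correlate best with its own number, a hint from the data and not the design, and outside ages at 0dpr, where 6 of 8 did, the libraries share only a number.

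With each library left out in turn, the count of members ran in immature mice from 0 to 3 for 0dpr against baseline, 5 to 6 for 2dpr against 0dpr, 3 to 6 for 5dpr against 2dpr, 1 to 3 for 14dpr against 5dpr and 3 to 4 for 14dpr against baseline. In mature mice it ran in the same order from 2 to 7, 6 to 8, 1 to 5, 2 to 2 and 5 to 6, and between ages at 2dpr from 0 to 2. Of the 27 genes most alike, 25 were shared with a prior count of 0.5 and 14 with Spearman's rho.

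Phospho1 is limited by its depth of 0 to 76 reads, Bglap and Bglap2 by shared sequence, and mature 5dpr by 3 libraries. Runs are not assigned to libraries, and tissue makeup changes with stage.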
